A study of Homo sapiens with 23 samples.

Results

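The genes described here are 37 textbook transcriptional targets of p53, listed by name for their roles in cell cycle arrest, cell death, DNA repair and metabolism. Each was found in all 8 deposited RNA-seq tables, among 28101 named genes, by matching RefSeq transcript identifiers to symbols and keeping the transcript row with the highest mean read count. Of the 37, 35 had enough reads to be tested. SPATA18, a mitochondrial quality control gene, had 0 to 6 reads per library and EDA2R, a TNF receptor family member, had 0 to 4, so no fold change is given for either.

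The RNA-seq libraries are from HCT116 cells, an established line from a human colorectal carcinoma. They include knockouts of the chromatin enzymes MLL4 and BAP1. MLL4 (gene KMT2D) methylates histone H3 at enhancers, and BAP1 removes ubiquitin from histone H2A. Polyadenylated RNA was sequenced from 4 groups of 2 libraries: cells labelled WT, MLL4 knockout cells (MLL4 KO), control cells, which carry the genotype label WT too, and BAP1 knockout cells (BAP1 KO). No drug, damaging agent or time point is given for any group, and the labels say neither how the knockouts were made nor whether replicates were separate cultures or clones, so p-values measure only the spread between these libraries. The labels do not say how control differs from WT either. However, the names of the deposited control and BAP1 KO tables carry osTir1, a plant auxin receptor used to degrade tagged proteins, which the WT and MLL4 KO names lack. Control against WT may therefore compare different parental lines, and no value here can tell these apart. Except in control, the numbers that tell replicates apart in those names are not consecutive and may be clone numbers. The 15 ChIP-seq samples of the series were not analysed here.

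p53 is a transcription factor that is held low in unstressed cells by the ubiquitin ligase MDM2, itself a p53 target, and that accumulates after DNA damage and other stress. It binds DNA as a tetramer at a pair of 10-base motifs and switches on CDKN1A (p21), which stops the cell cycle, together with death genes such as BBC3 (PUMA), PMAIP1 (NOXA), BAX and FAS. Several of these genes are also known targets of ATF4 or CHOP, transcription factors of the integrated stress response, so a change in them is not specific to p53.

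The p53 motif could be read directly in a few of the promoters. RefSeq promoter windows of GRCh38.p14, running from 250 bases before to 50 bases after a start site, were matched for 31 of the 37 genes and searched for the consensus p53 decamer, whose letters read the same on both strands. At least 1 perfect decamer lay in the windows of 7 of the 31 genes (22.6%), namely AEN, DDB2, FAS, FDXR, PLK2, RPS27L and SESN1, against 8.06% of 27305 genes with a window. A full site, here 2 decamers separated by at most 1 base with at most 2 mismatches, the central C and G of each decamer intact, lay in 4 of the 31 (12.9%), against 0.674% of all genes. The 4 sites are shown because they are the DNA element that the group is named for. Capitals mark the 2 decamers, lower case the 15 flanking bases on each side and any spacer, and all are on the plus strand with position 0 at the first transcribed base.
FAS, chr10:88991294-88991343, positions -122 to -103, 2 mismatches: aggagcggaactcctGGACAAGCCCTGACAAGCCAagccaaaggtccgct
DDB2, chr11:47214964-47215014, positions 5 to 25, 0 mismatches and a spacer of 1 base: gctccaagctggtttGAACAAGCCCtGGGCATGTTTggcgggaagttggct
MDM2, chr12:68808908-68808957, positions -94 to -75 from the nearer of 2 start sites, 2 mismatches: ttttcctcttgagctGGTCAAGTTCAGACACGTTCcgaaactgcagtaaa
AEN, chr15:88621291-88621340, positions -34 to -15, 2 mismatches: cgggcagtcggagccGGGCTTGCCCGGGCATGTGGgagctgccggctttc
A match is a description of the letters in these windows and no evidence of binding. Genes without a match may hold p53 sites outside the window.

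Counts over genes came to 24.8 to 42.2 M per library (M, 1e6 reads), and tested p53 targets had 133 to 35656 reads each in a library. Levels are given as CPM, the read count scaled to a library total of 1e6, after TMM scaling, and compared between genes only by the deposited RPKM, which takes transcript length into account. The knockouts cannot be read from whole-gene counts: KMT2D averaged 340 CPM in WT and 343 CPM in MLL4 KO, and BAP1 averaged 59.4 CPM in control and 62.4 CPM in BAP1 KO, so groups are named by their labels. Of 8 colorectal epithelial markers, 7 were measured (EPCAM, KRT8, KRT18, CDH1, CLDN4, CDX2 and VIL1), and CEACAM5 was at or near 0. Markers of other cell types were near 0 or low, with PTPRC, CD3E, PECAM1, CDH5, COL1A2, DCN and PDGFRB failing the low-count filter and the other 3 (CD68, COL1A1 and VIM) summing to 34.6 to 83.2 CPM. Some of these 3 moved with the groups. VIM, the mesenchymal filament vimentin, stood at 0.705 and 0.718 CPM for control and 11 and 5.84 for BAP1 KO, 11.8-fold higher (edgeR adjusted p = 0.00672). CD68, a macrophage lysosomal protein, stood at 27.3 and 28.2 CPM for control, and at 4.03 to 9.02 in the other 6 libraries. It fell to 0.22 of control in BAP1 KO (adjusted p = 0.00787) and was 4.36-fold higher in control than in WT (adjusted p = 0.00465). COL1A1, a fibroblast collagen, was 1.6-fold higher in control than in WT (adjusted p = 0.0227). The part of these markers in the changes of the p53 targets was not tested. In these bulk libraries, fewer cells carrying a transcript and less transcript per cell cannot be told apart.

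By RPKM averaged over the 4 libraries of WT and control, the most abundant of the 35 tested p53 targets were GDF15, a secreted stress cytokine, at 313, SFN (14-3-3 sigma), a G2 arrest protein, at 107, CDKN1A at 95.6, GADD45A, a stress and repair protein, at 72.1, and TNFRSF10B, the death receptor DR5, at 58. The lowest of the 35 were SESN1, a stress-response inhibitor of mTORC1, at 1.65, the death receptor FAS at 1.93 and APAF1, the apoptosome scaffold, at 2.23. MDM2 stood at 13.5 RPKM. These averages join 2 groups that differ, and the order was not the same in both. GDF15 stood at 68.7 and 22.5 RPKM in WT and at 575 and 585 in control. TNFRSF10B stood at 26.6 and 20.4 in WT and at 93.5 and 91.6 in control. SFN, at 119 and 112, was the most abundant of the group in both WT libraries, and stood at 93.7 and 102 in control.

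In MLL4 KO, p53 targets split into a minority that rose and a majority that did not pass the test. Of 35 tested, 9 rose and 2 fell at an adjusted p below 0.05 (edgeR quasi-likelihood test, Benjamini-Hochberg adjustment over 16828 genes), against a background of 19.1% of all genes called, 9.12% upward and 9.97% downward. The 9 were CDKN1A, GADD45A, BTG2, PLK2, BBC3, TNFRSF10B, FDXR, NINJ1 and GDF15, and the 2 that fell were AEN and TIGAR. The median log2 change of the 35 was 0.35, against 0.004 for all genes. Libraries of the knockout and WT did not overlap for 24 of the 35, 20 of them higher in the knockout and 4 lower, where 60.3% of all genes had libraries that did not overlap (30% higher and 30.3% lower). Under upper-quartile scaling, which moved the median of all genes to 0.088, the split over all genes turned from 1534 higher and 1678 lower to 1888 higher and 1205 lower, and 12 of the 35 p53 targets were called.

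These calls depended on the other libraries of the model. With the 4 libraries of the comparison alone, 0 of the 35 passed the test in edgeR, although 14 had an unadjusted p below 0.05 there, and 60 of 16342 genes passed it (0.367%). The 11 genes then had adjusted p-values between 0.064 for GADD45A and 0.146 for NINJ1 at the same directions, and DESeq2 on all 8 libraries called 12 of the 35. Leaving out WT replicate 1 raised the number called to 19, where 30.5% of all genes were called. It was 4 when WT replicate 2 was left out (3.84% of all genes), 2 when MLL4 KO replicate 2 was (3.08%), and 5 when either control library was (6.17% and 6.18%). The 2 calls left without MLL4 KO replicate 2 were those of GADD45A and TNFRSF10B. The 4 called when WT replicate 2 was left out were all higher.

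In BAP1 KO, 3 of the 35 rose and 6 fell, against a background of 22.4% of all genes called, 12.1% upward and 10.4% downward. CCNG1, PIDD1 and APAF1 rose, and PMAIP1, FAS, PLK2, TIGAR, PHLDA3 and TRIAP1 fell. The median log2 change was -0.06, against 0.013 for all genes, and 27 of the 35 had libraries that did not overlap (14 higher and 13 lower), where 72.2% of all genes did not (37% higher and 35.2% lower). The calls of APAF1, PLK2 and PMAIP1 held under all 21 alternatives run for this comparison. The number called was 18 with the 4 libraries of the comparison alone (10 higher and 8 lower, against 41.6% of all genes) and 14 when either WT library was left out (28.8% and 29%). It was 4 without control replicate 1 (6.67% of all genes), 3 without control replicate 2 (6.22%) and 3 without BAP1 KO replicate 1 (7.71%).

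More p53 targets, and more genes in all, were called between control and WT than in either knockout comparison. In control against WT, 14 p53 targets were higher and 6 lower (BAX, PIDD1, AEN, APAF1, PLK2 and POLH), where the background was 39.6% of all genes called (19.9% higher), and the median log2 difference was 0.47 against 0.017 for all genes. Control and WT libraries did not overlap for 28 of the 35, where 73.6% of all genes did not. The number called was 13 without either control library, where 19.4% and 18.8% of all genes were called. This comparison shares WT with the MLL4 KO comparison and control with the BAP1 KO comparison, so its values stand beside theirs and were not used as a check of either.

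**Figure D1:**
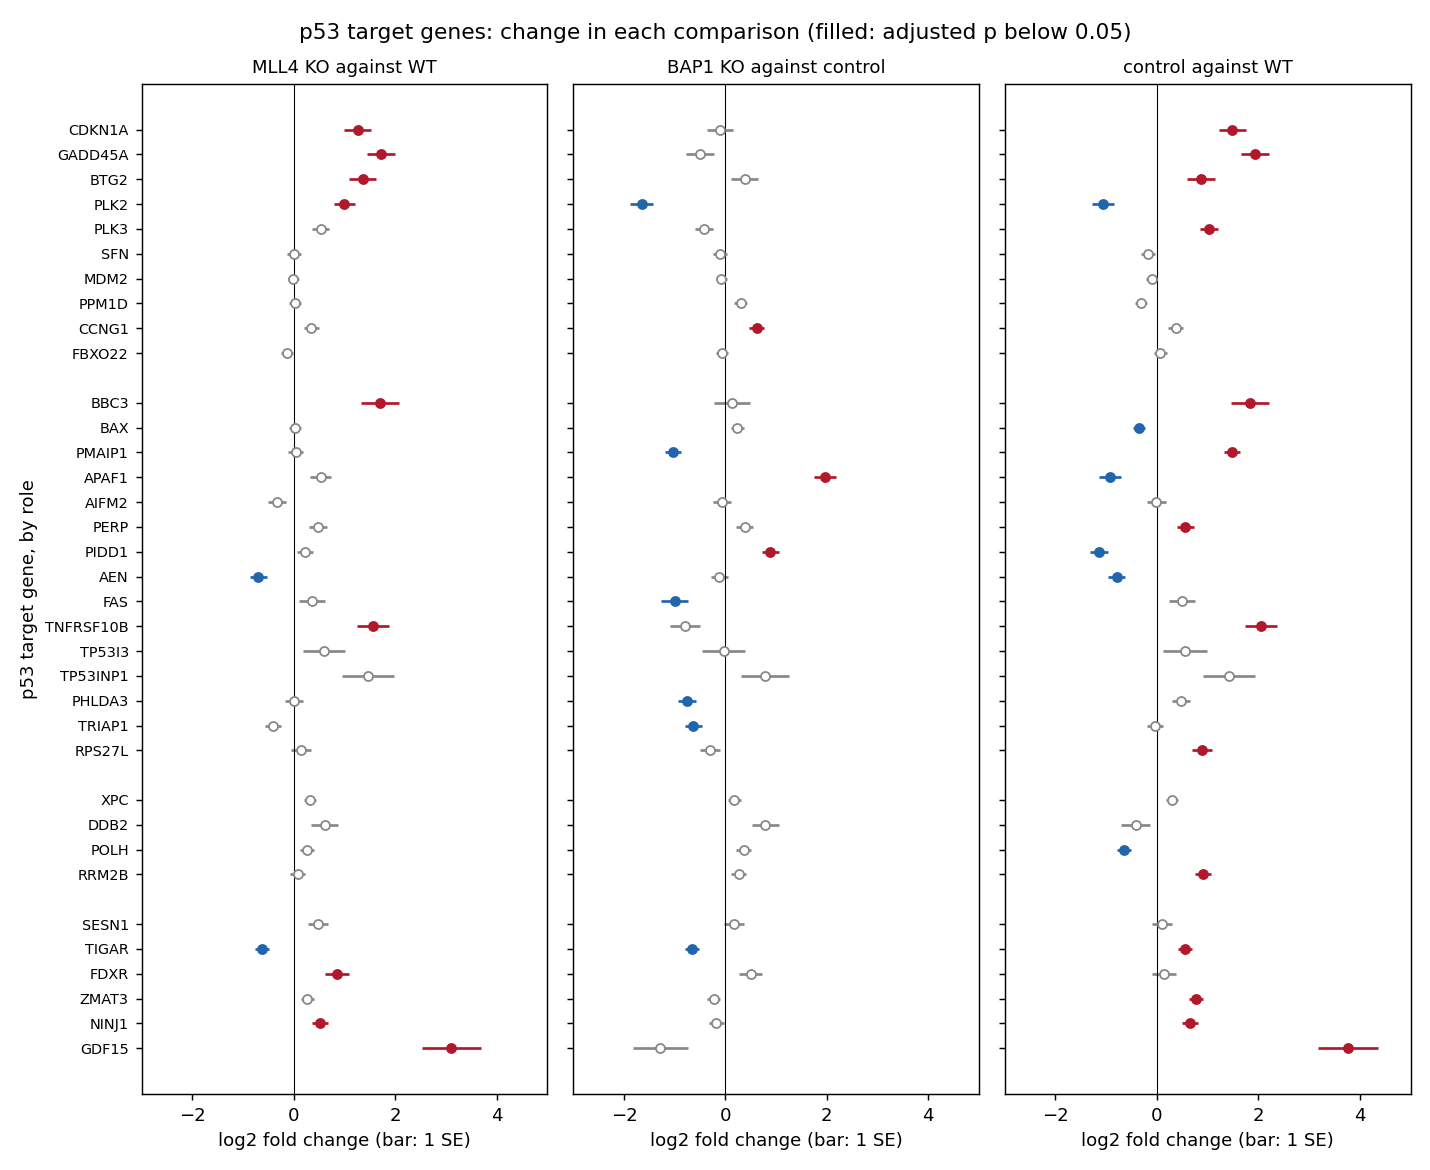
Log2 fold change of the 35 tested p53 target genes (rows, grouped from top to bottom as arrest and feedback, apoptosis, repair and nucleotide supply, and metabolism, RNA and membrane genes) in each comparison, with 1 SE, 2 libraries a group. Filled points have an adjusted p below 0.05, red higher and blue lower: 9 red and 2 blue for MLL4 KO, 3 red and 6 blue for BAP1 KO, 14 red and 6 blue for control against WT.

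Among the 10 arrest and feedback genes, 4 rose in MLL4 KO and 0 fell (40% called, against 19.1% of all genes), while in BAP1 KO 1 rose and 1 fell (20%, against 22.4%). The 4 became 2 on leaving out the second WT library, 1 on leaving out the second MLL4 KO library, and 0 in edgeR with the 4 libraries of the comparison, where 5 of the 10 had an unadjusted p below 0.05. In BAP1 KO the 2 became 4 with the 4 libraries alone and 1 without either control library or BAP1 KO replicate 1. CDKN1A (chromosome 6, 36676463 to 36687332), the inhibitor of cyclin-dependent kinases, stood at 200 and 113 CPM for WT, 326 and 425 for MLL4 KO, 437 and 444 for control, and 361 and 459 for BAP1 KO. WT was thus the low group, with both libraries below all other 6. CDKN1A rose 2.4-fold in MLL4 KO (log2 1.26 ± 0.26 SE, edgeR adjusted p = 0.0188, n = 2 a group) and was 2.82-fold higher in control than in WT (adjusted p = 0.00284), whereas in BAP1 KO its log2 change was -0.10 ± 0.26 (adjusted p = 0.808). Without MLL4 KO replicate 2 the adjusted p of the rise was 0.0965.

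GADD45A (chromosome 1, 67685201 to 67688334) stood at 56.9 and 47.5 CPM for WT, 126 and 219 for MLL4 KO, 198 and 203 for control, and 115 and 169 for BAP1 KO. Its rise in MLL4 KO was 3.3-fold (log2 1.72 ± 0.28, adjusted p = 0.0109). The BAP1 KO libraries both lay below the control libraries, but the log2 change of -0.50 ± 0.27 did not pass the test (adjusted p = 0.221). When WT replicate 2 was left out, the rise in MLL4 KO had an adjusted p of 0.0886.

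BTG2, an antiproliferative cofactor of mRNA deadenylation, measured 28.1 and 13.9 CPM for WT, 54.9 and 52.1 for MLL4 KO, 37.8 and 38.3 for control, and 45 and 54.1 for BAP1 KO. It rose 2.56-fold in MLL4 KO (log2 1.36 ± 0.27, adjusted p = 0.0173) and was higher in control than in WT (log2 0.87 ± 0.27, adjusted p = 0.0338). The rise in MLL4 KO had an adjusted p of 0.0717 without MLL4 KO replicate 2. The difference between control and WT was 0.44 without WT replicate 2, with an adjusted p of 0.0574, and also missed the threshold without either control library (0.117 and 0.131) and in the fit on 4 libraries (0.0921).

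PLK2, a stress-induced polo-like kinase (chromosome 5, 58453982 to 58460086), moved in every comparison. Its level was 83.6 and 62.9 CPM for WT, 131 and 162 for MLL4 KO, 34.4 and 35.6 for control, and 13.5 and 8.69 for BAP1 KO, so no 2 groups overlapped. It rose 2-fold in MLL4 KO (log2 1.00 ± 0.21, adjusted p = 0.0172), and in BAP1 KO it fell to 0.318 of control (log2 -1.65 ± 0.22, adjusted p = 0.00127). Unlike CDKN1A and GADD45A it was lower in control than in WT (log2 -1.06 ± 0.21, adjusted p = 0.00396). The rise in MLL4 KO had adjusted p-values of 0.0918 without WT replicate 2 and of 0.0863 when MLL4 KO replicate 2 was left out, and the other calls held under all alternatives.

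PLK3, a related kinase, was called as higher in control than in WT (1.03 ± 0.18 on the log2 scale, adjusted p = 0.00184), with 0.53 ± 0.17 in MLL4 KO (adjusted p = 0.0602, and 0.0404 in DESeq2). CCNG1, a cyclin that recruits phosphatase to MDM2, rose in BAP1 KO, from 105 and 112 CPM in control to 159 and 175 (log2 0.62 ± 0.15, adjusted p = 0.016). That call was lost on leaving out either control or either BAP1 KO library (adjusted p of 0.0649 to 0.146).

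MDM2, whose promoter holds a full site by the above rule, was among the flattest of the group. It stood at 140 and 126 CPM for WT, 134 and 131 for MLL4 KO, 128 and 121 for control, and 119 and 116 for BAP1 KO. Its log2 changes were -0.01 ± 0.11 in MLL4 KO (adjusted p = 0.972), -0.08 in BAP1 KO (adjusted p = 0.651) and -0.10 in control against WT (adjusted p = 0.503). SFN, the WIP1 phosphatase gene PPM1D and the ubiquitin ligase subunit FBXO22 were called in no comparison either. PPM1D stood at 39.9 and 38.1 CPM in WT and 41.6 and 37.1 in MLL4 KO. It was lower in control, at 30.9 and 31.7, than in BAP1 KO, at 38.2 and 39.3. That log2 change of 0.30 ± 0.12 had an edgeR adjusted p of 0.107, and of 0.0311 with the 4 libraries of the comparison alone.

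**Figure D2:**
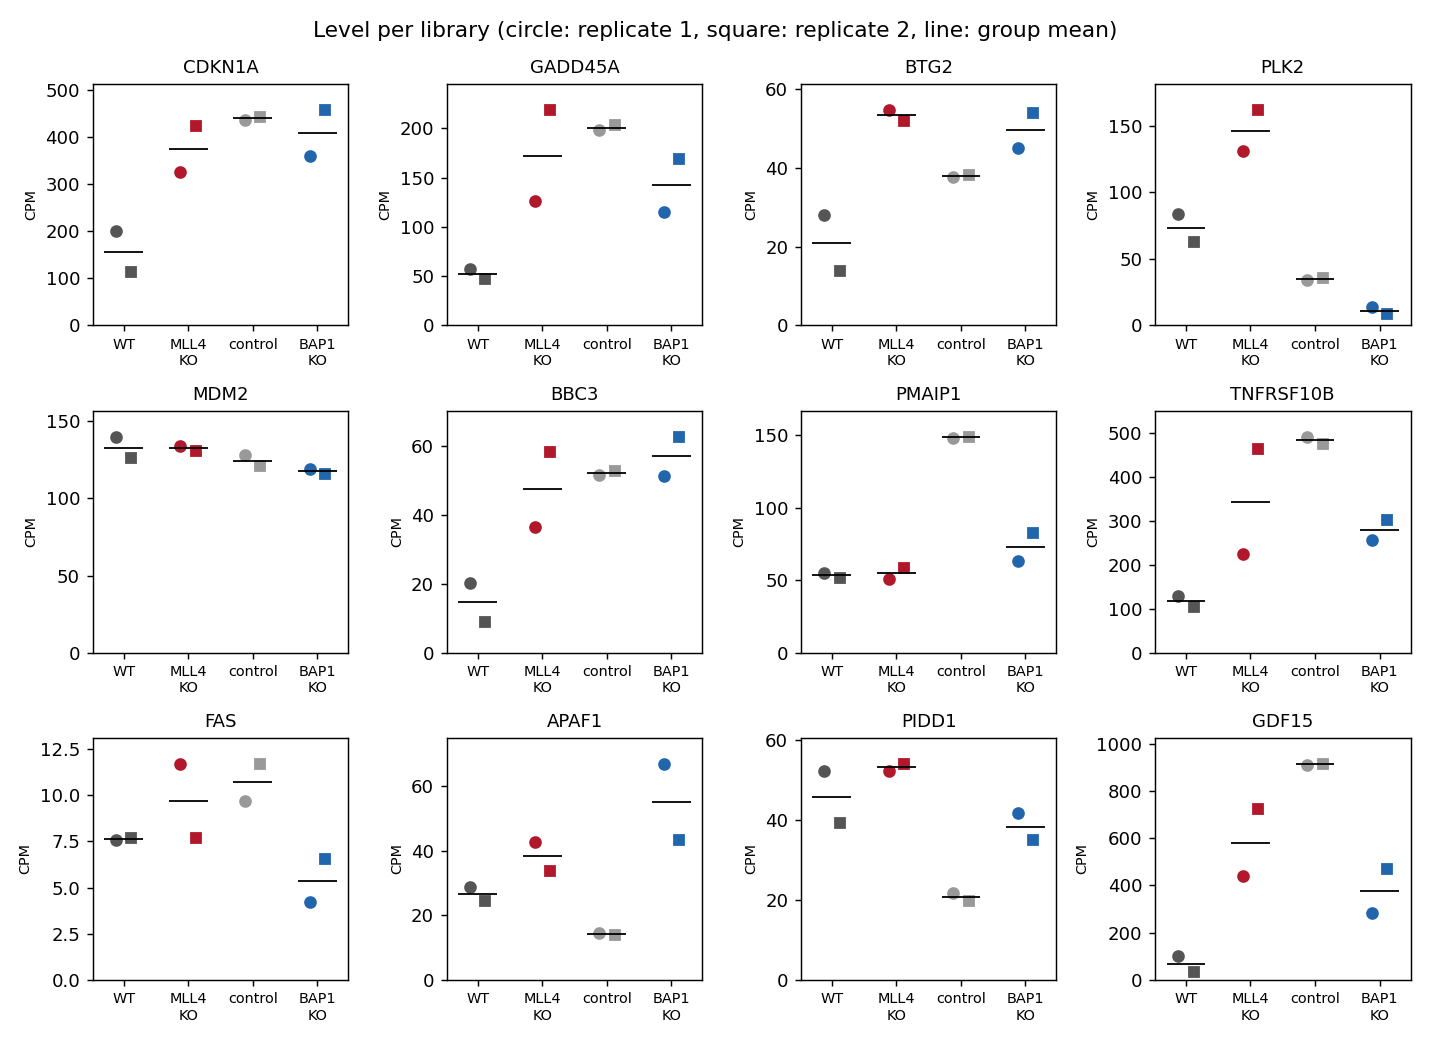
TMM-scaled CPM of 12 p53 target genes in each library (circle, replicate 1; square, replicate 2; line, group mean), with each vertical axis starting at 0. CDKN1A, GADD45A, BBC3, TNFRSF10B and GDF15 are lowest in the 2 WT libraries, PLK2 is lowest in BAP1 KO, and MDM2 lies between 116 and 140 in all 8 libraries.

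Apoptosis genes did not move as a block. Of 15 tested, 2 rose and 1 fell in MLL4 KO (20% called), 2 rose and 4 fell in BAP1 KO (40%), and 5 were higher and 4 lower in control than in WT (60%), against 19.1%, 22.4% and 39.6% of all genes. The MLL4 KO count of 3 was 8 without WT replicate 1, 1 on leaving out the second WT, the second MLL4 KO or any control library, and 0 in edgeR with the 4 libraries of the comparison, where 5 had an unadjusted p below 0.05. The BAP1 KO count of 6 fell on leaving out either control library or BAP1 KO replicate 1. With the 4 libraries of that comparison alone it rose, as TNFRSF10B, TP53INP1 and PERP were called too. Between control and WT the count was 5 without control replicate 2 and at most 10. BBC3, a BH3-only protein that frees BAX (chromosome 19, 47220824 to 47232860), stood at 20.2 and 9 CPM for WT, 36.3 and 58.3 for MLL4 KO, 51.4 and 52.6 for control, and 51.1 and 62.6 for BAP1 KO. It rose 3.26-fold in MLL4 KO (log2 1.70 ± 0.37, adjusted p = 0.0261), while its log2 change in BAP1 KO was 0.13 ± 0.35 (adjusted p = 0.826). The rise had adjusted p-values of 0.0581 to 0.113 on leaving out the second WT library, the second MLL4 KO library or a control library.

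PMAIP1, the other BH3-only gene of the group (chromosome 18, 59899996 to 59904305), had another pattern. It measured 55 and 51.5 CPM for WT, 51.1 and 58.5 for MLL4 KO, 148 and 149 for control, and 63 and 82.5 for BAP1 KO. Control was the single high group. PMAIP1 fell to 0.49 of control in BAP1 KO (log2 -1.03 ± 0.15, adjusted p = 0.00149) and was 2.79-fold higher in control than in WT (adjusted p = 0.000133), and its log2 change in MLL4 KO was 0.04 ± 0.15 (adjusted p = 0.867).

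Both death receptors had their highest mean in control, at very different levels. TNFRSF10B stood at 130 and 103 CPM for WT, 224 and 465 for MLL4 KO, 492 and 476 for control, and 257 and 302 for BAP1 KO. The MLL4 KO libraries were both above WT but far apart, and the rise of 2.95-fold (log2 1.56 ± 0.31) had an adjusted p of 0.0184, which was 0.134 without WT replicate 2. In BAP1 KO both libraries lay below control, with a log2 change of -0.79 ± 0.30 that missed the threshold in edgeR (adjusted p = 0.1) and passed it in DESeq2 (adjusted p = 0.0128).

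FAS (chromosome 10, 88964050 to 89017059, overlapping ACTA2 and the antisense gene FAS-AS1) was far less abundant. It stood at 7.56 and 7.66 CPM for WT, 11.7 and 7.68 for MLL4 KO, 9.68 and 11.7 for control, and 4.24 and 6.52 for BAP1 KO. FAS fell to 0.499 of control in BAP1 KO (log2 -1.0 ± 0.27, adjusted p = 0.0277), with adjusted p-values of 0.0851, 0.195 and 0.21 without control replicate 1, control replicate 2 and BAP1 KO replicate 1. As the counting is not stated to use strand, reads of FAS, ACTA2 and FAS-AS1 cannot be told apart where these genes overlap.

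APAF1 gave the largest rise of the group in BAP1 KO (chromosome 12, 98645290 to 98735433, within a locus that ANKS1B overlaps). Its level was 28.7 and 24.5 CPM for WT, 42.8 and 33.8 for MLL4 KO, 14.4 and 13.8 for control, and 66.9 and 43.4 for BAP1 KO. The BAP1 KO mean was 3.92-fold that of control (log2 1.97 ± 0.22, adjusted p = 0.000487), and control was below WT (log2 -0.92 ± 0.22, adjusted p = 0.00947), the latter with an adjusted p of 0.0586 and 0.0751 without control replicates 1 and 2. PIDD1, a death-domain protein that activates caspase-2, was also lower in control than in WT (log2 -1.14 ± 0.17, edgeR adjusted p = 0.000864). It stood at 52.4 and 39.2 CPM for WT, 52.2 and 54.1 for MLL4 KO, 21.8 and 19.7 for control, and 41.7 and 35.1 for BAP1 KO. Unlike that of APAF1, its BAP1 KO mean of 38.4 CPM was below its WT mean of 45.8 CPM. Its rise in BAP1 KO was 0.89 ± 0.17 (log2, adjusted p = 0.00556). That adjusted p was 0.0801 without control replicate 2 and 0.0588 without BAP1 KO replicate 1. For both genes the BAP1 KO and MLL4 KO libraries lay above control.

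AEN, an apoptosis-linked exonuclease and one of the 4 genes with a full promoter site, was highest in WT, at 63.6 and 84.6 CPM, and stood at 42.7 and 48.4 in MLL4 KO, 47.2 and 38.8 in control, and 36.3 and 42.7 in BAP1 KO. It fell to 0.614 of WT in MLL4 KO (log2 -0.70 ± 0.17, adjusted p = 0.0257), a call lost without WT replicate 2 (adjusted p = 0.128), either MLL4 KO library (0.0814 and 0.084) or either control library (0.0552 and 0.0507). BAX, the pore-forming effector, ranged only from 43.3 to 61.1 CPM and was called as lower in control than in WT (log2 -0.36 ± 0.12, adjusted p = 0.0416), a call lost on leaving out any WT, control or BAP1 KO library and under upper-quartile scaling (adjusted p = 0.0755).

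PHLDA3, an inhibitor of AKT, and TRIAP1, a p53-induced survival factor, both fell in BAP1 KO. PHLDA3 went from 33.6 and 37.8 CPM in control to 18.4 and 24.2 (log2 -0.75 ± 0.18, adjusted p = 0.016), and TRIAP1 from 33.9 and 31.8 to 19.6 and 22.8 (log2 -0.63 ± 0.17, adjusted p = 0.0248). Both calls were lost without either control library and without BAP1 KO replicate 1, at adjusted p-values of 0.069 to 0.181, and that of TRIAP1 also without BAP1 KO replicate 2 (0.056). RPS27L, a small ribosomal protein homologue, and PERP, a desmosomal membrane protein, were called as higher in control than in WT, by 0.89 ± 0.20 and 0.56 ± 0.17 on the log2 scale (adjusted p = 0.00757 and 0.0282), the latter lost without WT replicate 2 or either control library (0.106 to 0.133).

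TP53INP1, a stress protein that takes part in autophagy, had large changes with wide errors. It stood at 20.8 and 5.53 CPM for WT, 36.8 and 34.5 for MLL4 KO, 34.7 and 34.7 for control, and 64.5 and 54.6 for BAP1 KO. The log2 change of 1.46 ± 0.51 in MLL4 KO missed the threshold in edgeR (adjusted p = 0.0912) and passed it in limma-voom (adjusted p = 0.0227). It was 2.68 without WT replicate 1 (adjusted p = 0.000162) and 0.78 without WT replicate 2 (adjusted p = 0.0356). The oxidoreductase TP53I3 had a similar spread within WT, at 14.5 and 4.69 CPM. With all 8 libraries it was called in no comparison, nor was AIFM2, a ferroptosis suppressor. These results also depended on the WT libraries. In MLL4 KO the log2 change of TP53I3 was 0.60 ± 0.42, and 1.61 without WT replicate 1. That of AIFM2 was -0.33 ± 0.18, and -0.58 without WT replicate 1.

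Of the 4 repair and nucleotide supply genes, edgeR called 0 in either knockout. An unadjusted p below 0.05 was found for 1 of the 4 in MLL4 KO and 2 of the 4 in BAP1 KO, and DESeq2 called DDB2 in BAP1 KO. Of all genes, 19.1% were called in MLL4 KO, 22.4% in BAP1 KO and 39.6% in control against WT. With only 4 genes, these counts cannot be told apart from those shares. In control against WT 1 was higher and 1 lower, a count of 2 that was 1 without either control library and 3 without WT replicate 2. The count in each knockout was 1 without WT replicate 1 (DDB2), and in BAP1 KO also 1 without WT replicate 2 and 2 with the 4 libraries of the comparison alone. RRM2B, the p53-inducible ribonucleotide reductase subunit, stood at 66.7 and 52.8 CPM for WT, 60.8 and 65.2 for MLL4 KO, 110 and 113 for control, and 122 and 147 for BAP1 KO, and was higher in control than in WT (log2 0.91 ± 0.15, adjusted p = 0.00142). POLH, the translesion polymerase eta, was lower in control than in WT (log2 -0.65 ± 0.14, adjusted p = 0.00595), with 0.0642 and 0.0544 without control replicates 1 and 2. DDB2, the damage sensor whose promoter holds the site with 0 mismatches, stood at 35.7 and 17.6 CPM for WT, 38.2 and 42.8 for MLL4 KO, 19.2 and 20.3 for control, and 34.1 and 34.4 for BAP1 KO. Its log2 change of 0.79 ± 0.27 in BAP1 KO had an adjusted p of 0.0707 in edgeR and of 0.0171 in DESeq2. XPC, a damage recognition factor, ranged from 52.1 to 82.5 CPM and was called nowhere.

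GDF15 (chromosome 19, 18386158 to 18389176) had the widest range of the group. Its level was 101 and 34.3 CPM for WT, 438 and 725 for MLL4 KO, 909 and 914 for control, and 282 and 468 for BAP1 KO. Every MLL4 KO library exceeded both WT libraries, and both BAP1 KO libraries lay below both control libraries. The rise in MLL4 KO was 8.61-fold (log2 3.11 ± 0.58, adjusted p = 0.0221), the difference between control and WT was 13.5-fold (log2 3.76 ± 0.59, adjusted p = 0.00441), and the log2 change of -1.28 ± 0.54 in BAP1 KO did not pass the test (adjusted p = 0.147). The last passed the test with the 4 libraries of the comparison (adjusted p = 0.0103) and without WT replicates 1 and 2 (0.0301 and 0.0302). The MLL4 KO rise had an adjusted p of 0.0966 without MLL4 KO replicate 2 and of 0.0596 and 0.0578 without control replicates 1 and 2.

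TIGAR, a phosphatase that slows glycolysis, was the only gene of the group called as lower in both knockouts. The share of all genes so called was not worked out. TRIAP1, called in BAP1 KO, was also below WT in both MLL4 KO libraries (log2 -0.41 ± 0.16, edgeR adjusted p = 0.105). TIGAR stood at 22.1 and 22.4 CPM for WT, 15.3 and 13.4 for MLL4 KO, 34.6 and 30.7 for control, and 19.8 and 21.6 for BAP1 KO. The falls were by 0.63 ± 0.14 (adjusted p = 0.0217) and by 0.66 ± 0.14 (adjusted p = 0.0107) on the log2 scale, and no knockout library overlapped its own reference group. TIGAR was higher in control than in WT (log2 0.55 ± 0.14, edgeR adjusted p = 0.0133). Its mean was 22.3 CPM in WT and 20.7 CPM in BAP1 KO. The MLL4 KO call was lost on leaving out the second WT, the second MLL4 KO or any control library (adjusted p of 0.056 to 0.117), and the BAP1 KO call without either control library or BAP1 KO replicate 1 (0.0595 to 0.122).

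FDXR, a mitochondrial ferredoxin reductase, rose in MLL4 KO from 90.9 and 52.9 CPM to 123 and 136 (log2 0.85 ± 0.23, adjusted p = 0.0347), and NINJ1, which ruptures the membrane of dying cells, from 23.9 and 20.2 to 29.5 and 33.9 (log2 0.52 ± 0.16, adjusted p = 0.0437). FDXR lost its call on leaving out any library except WT replicate 1, and NINJ1 on leaving out any except WT replicate 1 and MLL4 KO replicate 1, with adjusted p-values of up to 0.152 and 0.188. ZMAT3, an RNA-binding splicing regulator, was higher in control than in WT (log2 0.77 ± 0.13, adjusted p = 0.00155) and called in neither knockout. With all 8 libraries SESN1 was called in no comparison. Its log2 change in MLL4 KO was 0.48 ± 0.19 (edgeR adjusted p = 0.111), and 0.69 without WT replicate 1.

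In the fit to all 8 libraries, 10 of the 35 genes were called in none of the 3 comparisons, 12 in 1 and 11 in 2. PLK2 and TIGAR were called in all 3. The 10 were MDM2, TP53I3, TP53INP1, SESN1, XPC, DDB2, PPM1D, SFN, FBXO22 and AIFM2. Of all genes, 19.1% were called in MLL4 KO, 22.4% in BAP1 KO and 39.6% in control against WT. How all genes split by number of comparisons was not worked out, so these counts do not set the p53 targets apart.

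Whether the knockout effects differ was tested gene by gene as the MLL4 KO effect minus the BAP1 KO effect, which share no library. The effects differed for 9 of 35, against a background of 16.1% of all genes (7.74% with the MLL4 KO effect more positive, 8.32% more negative), with the MLL4 KO effect the more positive for 8 and the more negative for APAF1. PLK2 differed by 2.65 ± 0.30 on the log2 scale (adjusted p = 0.00137), GADD45A by 2.22 ± 0.38 (adjusted p = 0.00921), PMAIP1 by 1.07 ± 0.21 (adjusted p = 0.0106) and APAF1 by -1.44 ± 0.30 (adjusted p = 0.0142). GDF15, TNFRSF10B, CDKN1A, FAS and PLK3 were the others. For BBC3 the difference of 1.58 ± 0.51 had an adjusted p of 0.0787. The number called was 16 without WT replicate 1 (25.4% of all genes), 2 without control replicate 1 (4.16%), 3 without control replicate 2 (3.93%) and 3 without BAP1 KO replicate 1 (5.05%). Upper-quartile scaling called 12 of the 35, and over all genes turned 1303 higher and 1400 lower into 1595 and 1079.

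**Figure D3:**
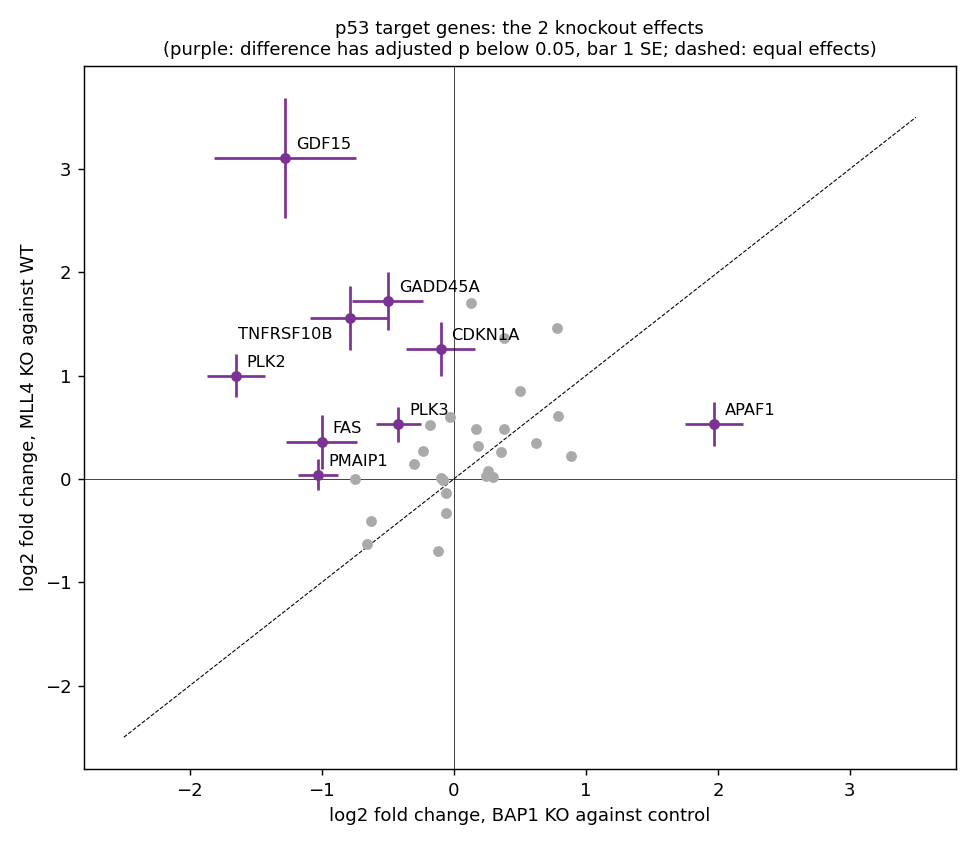
Log2 fold change of the 35 tested p53 target genes in BAP1 KO against control (horizontal) and in MLL4 KO against WT (vertical); purple points with bars of 1 SE are the 9 genes whose effects differ at an adjusted p below 0.05, and the dashed line marks equal effects. GDF15, GADD45A, TNFRSF10B and PLK2 lie high on the left, with PLK2 at -1.65 and 1.00, and APAF1 lies alone on the right at 1.97 and 0.53.

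Of the 35 genes, 30 were lower in WT replicate 2 than in WT replicate 1, where 47.8% of all genes were, and 8 were over 1.5-fold lower (16.7% of all genes) and 0 over 1.5-fold higher (7%). In BAP1 KO 8 of the 35 were lower in replicate 2 than in replicate 1, where 50% of all genes were. Over the 35 genes, the median absolute log2 difference between replicates was 0.333 for WT, 0.195 for MLL4 KO, 0.05 for control and 0.243 for BAP1 KO. Over all tested genes it was 0.233, 0.179, 0.082 and 0.156. Without WT replicate 2 the median log2 change of the 35 was 0.22 in MLL4 KO and 0.29 in control against WT.

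A further grouping concerns genes that are also known targets of ATF4 or CHOP, of which the group holds GADD45A, GDF15, TNFRSF10B, PMAIP1 and BBC3. Of these 5, 4 rose in MLL4 KO (median log2 change 1.7), 1 fell in BAP1 KO (median -0.79) and all 5 were higher in control than in WT (median 1.94), where 19.1%, 22.4% and 39.6% of all genes were called. The 4 became 1 on leaving out the second WT library, 2 on leaving out the second MLL4 KO or any control library, and 0 in edgeR with the 4 libraries of the comparison, where 4 had an unadjusted p below 0.05. The 1 in BAP1 KO became 2 on leaving out any 1 of the WT or MLL4 KO libraries and in DESeq2, and 3 with the 4 libraries of the comparison. Of the other 30 tested p53 targets, 5 rose and 2 fell in MLL4 KO (median 0.29), 3 rose and 5 fell in BAP1 KO (median -0.04), and 9 were higher and 6 lower in control than in WT (median 0.22). The shares called were 23.3%, 26.7% and 50%, to be read against the same background. The MLL4 KO count of 7 was 15 without WT replicate 1 and 3 on leaving out WT replicate 2 or a control library. It was 0 in edgeR without MLL4 KO replicate 2, where 11 had an unadjusted p below 0.05, and 0 with the 4 libraries alone, where 10 had. The BAP1 KO count of 8 was 15 with its 4 libraries, 12 without either WT library, 3 without control replicate 1, and 2 without control replicate 2 or BAP1 KO replicate 1. Between control and WT it was 8 without either control library and 18 without WT replicate 1.

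Targets of ATF4 and CHOP outside the group moved in the same libraries. Of 27 tested, 19 rose and 0 fell in MLL4 KO (median log2 change 1.5), 0 rose and 9 fell in BAP1 KO (median -0.75), and 26 were higher and 0 lower in control than in WT (median 2.17). The shares called were 70.4%, 33.3% and 96.3%, where 19.1%, 22.4% and 39.6% of all genes were called. CHAC1, which degrades glutathione, rose 11.1-fold in MLL4 KO (log2 3.47 ± 0.47, adjusted p = 0.0101), and SLC7A5, an amino acid transporter, fell to 0.363 of control in BAP1 KO (log2 -1.46 ± 0.29, adjusted p = 0.00938). The first count was 7 with the 4 libraries of the comparison alone, 3 on leaving out WT replicate 2 and 9 on leaving out MLL4 KO replicate 2. The count of 9 in BAP1 KO was 3 without either control library, 4 without BAP1 KO replicate 1, 16 without BAP1 KO replicate 2 and 17 in DESeq2. The part of this response in the changes of the p53 targets was not tested.

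**Figure D4:**
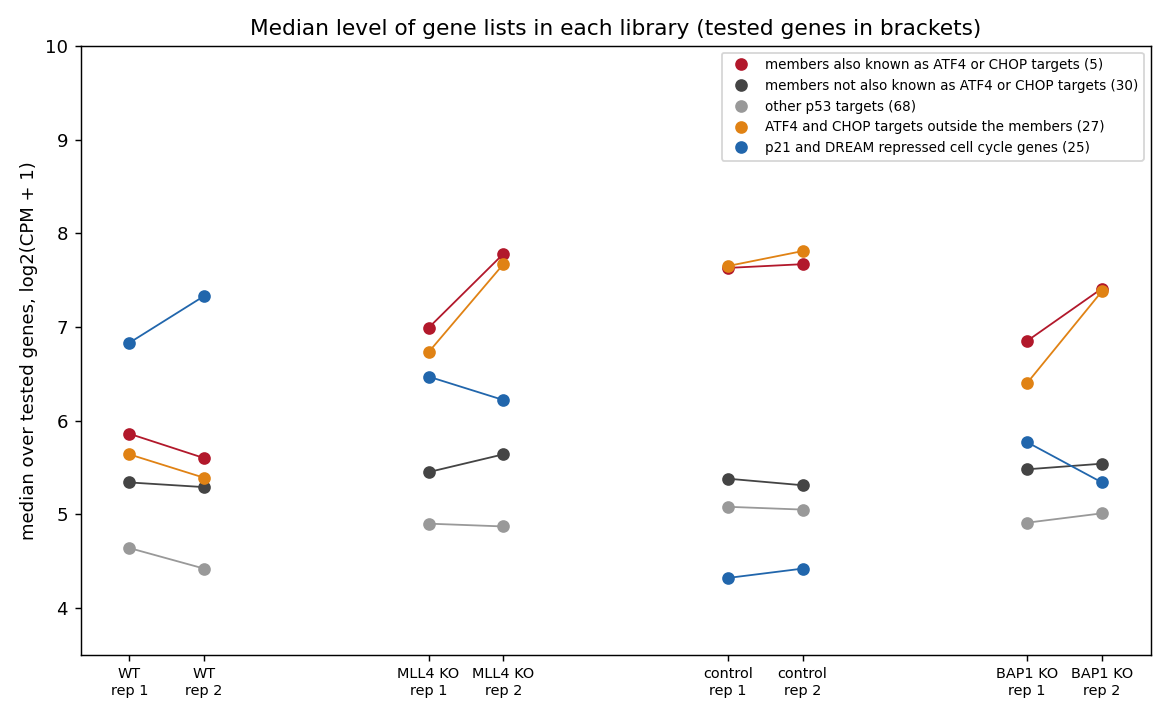
Median level, as log2(CPM + 1), over the tested genes of 5 gene lists in each of the 8 libraries, with lines joining replicates of a group; "members" in the legend are the p53 targets described here. The 5 p53 targets shared with ATF4 or CHOP rise from 5.86 and 5.6 in WT to 7.63 and 7.67 in control, the other 30 stay between 5.29 and 5.64, and the cell cycle genes fall from 6.83 and 7.33 in WT to 4.32 and 4.42 in control.

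Cell cycle genes that p21 and the DREAM complex are known to repress ran in the other direction from the targets of ATF4 and CHOP. Of 25 tested, 0 rose and 14 fell in MLL4 KO (median log2 change -0.68), 23 rose and 0 fell in BAP1 KO (median 1.23), and 0 were higher and 24 lower in control than in WT (median -2.61). The shares called were 56%, 92% and 96%, where 19.1%, 22.4% and 39.6% of all genes were called. CENPF, a kinetochore protein, fell by 1.03 ± 0.17 in MLL4 KO (log2, adjusted p = 0.00999), and FOXM1, a mitotic transcription factor, rose by 1.56 ± 0.13 in BAP1 KO (adjusted p = 0.000142). FOXM1 stood at 140 and 164 CPM for WT, 115 and 98.7 for MLL4 KO, 18.6 and 19.2 for control, and 56.1 and 55.5 for BAP1 KO. CDKN1A itself was not called in BAP1 KO (log2 -0.10 ± 0.26, edgeR adjusted p = 0.808). The part of p21 or p53 in the changes of the cell cycle genes was not tested. The MLL4 KO count was 1 of 25 without WT replicate 2, 0 when MLL4 KO replicate 2 was left out, 4 and 5 without control replicates 1 and 2 and 0 with the 4 libraries alone, where 15 and 18 of the 25 had an unadjusted p below 0.05 in the 2 fits with a count of 0. The BAP1 KO count was 14 without control replicate 1 or BAP1 KO replicate 1.

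Among 26 tested regulators of p53, 0 rose and 3 fell in MLL4 KO (CHEK1, ATR and USP7), 6 rose and 2 fell in BAP1 KO, and 3 were higher and 7 lower in control than in WT. The shares called were 11.5%, 30.8% and 38.5%, against 19.1%, 22.4% and 39.6% of all genes. CHEK1, the replication checkpoint kinase, fell by 0.75 ± 0.18 in MLL4 KO (adjusted p = 0.0235) and rose by 0.90 ± 0.18 in BAP1 KO (adjusted p = 0.0081), and TP73, a p53 homologue, rose by 0.92 ± 0.15 in BAP1 KO (adjusted p = 0.00273). The 3 calls of MLL4 KO were all lost in edgeR without WT replicate 2 or either control library, where 4 to 7 of the 26 had an unadjusted p below 0.05, and DESeq2 on all libraries called 7. Of the 8 calls of BAP1 KO, the count was 0 without control replicate 2 (8 at an unadjusted p below 0.05) and 1 without control replicate 1 or BAP1 KO replicate 1. These are transcript levels, and proteins were not measured. The count between control and WT was 6 and 5 without control replicates 1 and 2.

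Of 68 other p53 targets tested, 17 rose and 6 fell in MLL4 KO (median log2 change 0.28), 9 rose and 12 fell in BAP1 KO (median -0.11), and 23 were higher and 6 lower in control than in WT (median 0.3). These are 33.8%, 30.9% and 42.6% of the 68, where 19.1%, 22.4% and 39.6% of all genes were called. EPHA2, a receptor tyrosine kinase, stood at 244 and 277 CPM for WT, 614 and 779 for MLL4 KO, 294 and 302 for control, and 309 and 318 for BAP1 KO, a rise of 2.67-fold in MLL4 KO (log2 1.42 ± 0.14, adjusted p = 0.00249). SESN2, a stress-induced sestrin that is also a known ATF4 target, rose 4.54-fold in MLL4 KO (adjusted p = 0.00721) and was 8.14-fold higher in control than in WT (adjusted p = 0.000232). DUSP5, a nuclear ERK phosphatase, stood at 113 and 133 CPM for WT, 106 and 186 for MLL4 KO, 544 and 554 for control, and 154 and 197 for BAP1 KO, and fell by 1.65 ± 0.25 in BAP1 KO (log2, adjusted p = 0.0026). The MLL4 KO count of 23 was 7 without WT replicate 2, 6 when MLL4 KO replicate 2 was left out, 10 and 8 without control replicates 1 and 2 and 2 with the 4 libraries alone. The BAP1 KO count of 21 was 5 to 7 without a control library or BAP1 KO replicate 1 and 38 with the 4 libraries alone.

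Colorectal epithelial markers also moved with the groups. Of 7 tested, 2 rose and 1 fell in MLL4 KO, 0 rose and 5 fell in BAP1 KO, and 4 were higher and 0 lower in control than in WT. The shares called were 42.9%, 71.4% and 57.1%, where 19.1%, 22.4% and 39.6% of all genes were called. The MLL4 KO count of 3 was 1 with the 4 libraries of the comparison alone. Their summed level was 3000 and 2910 CPM for WT, 4630 and 4700 for MLL4 KO, 4210 and 4200 for control, and 2060 and 2440 for BAP1 KO. The BAP1 KO count was 3 without either control library, and the count between control and WT was 2 without WT replicate 2 or control replicate 1 and 1 without control replicate 2. Their part in the changes of the p53 targets was not tested.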

How the data were processed

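Poly(A)-selected RNA of HCT116 cells was sequenced in 8 libraries, 2 in each of 4 groups taken from the sample titles. Per the file headers, the authors deposited a raw read count and an RPKM per RefSeq transcript. The authors' RPKM values were used only to compare levels between genes. The submitters' processing notes name hg38, bcl2fastq, Bowtie2, STAR and SICER 1.1 with no roles. The sources used here do not give the counting tool, the strand setting or the annotation version.

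Transcripts were matched to symbols with the RefSeq table of GRCh38.p14, and 611 of 88819 rows without a symbol (0.233% to 0.256% of the counts) were left out. Each gene was represented by its row of highest mean count. In R 4.3.3, edgeR 4.0.16 fitted 1 quasi-likelihood model (filterByExpr, TMM, robust) with a mean per group to all 8 libraries, so the groups share 1 estimate of the spread. Tests were two-sided, with Benjamini-Hochberg adjustment over 16828 genes and a threshold of 0.05. The SE is the log2 fold change over the root of F. MLL4 KO against WT, but no other comparison, was simulated over 16473 genes, of which 200 were changed. Of the genes given a 1.5-fold change 5.97% were called, with 76.1% at 2-fold and 97% at 4-fold, and 11 of 130 calls were false.

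The p53 targets and all other lists were chosen with earlier results of these data known. Named genes are all p53 targets and, per other list and comparison, up to 4 called genes with the smallest p, of which the text gives a part. Some genes of the lists are not reported here and were left out of their counts. Replicate numbers were not treated as pairs: differences between replicates correlated at -0.19 to 0.06 across genes between groups. Alternatives tried were scaling by RLE or the upper quartile, limma-voom (limma 3.58.1), DESeq2 1.42.0, no filter, 1 CPM in 4 libraries, no robust step, other transcript rows, the replicate block, 4-library fits and leaving out each library. A crossed block and the legacy dispersion were chosen after seeing the data. No 2 libraries of a group agreed within sampling noise. Chi-square per gene was 45.49 for WT, 49.82 for MLL4 KO, 6.34 for control and 23.22 for BAP1 KO, so the shared estimate joins groups of unlike spread. Of the 37 loci, 21 overlap another annotated gene.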

Additional observations from a re-analysis of the deposited data

Results flagged for a closer look

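For 9 p53 targets the MLL4 KO effect and the BAP1 KO effect differed when the difference itself was tested (edgeR quasi-likelihood test, adjusted over 16828 genes). On the log2 scale the difference was 4.39 for GDF15, 2.65 for PLK2, 2.35 for TNFRSF10B, 2.22 for GADD45A, 1.37 for CDKN1A, 1.36 for FAS, 1.07 for PMAIP1 and 0.95 for PLK3, and -1.44 for APAF1. The knockouts were measured against different reference groups, so each difference also contains that between control and WT, which was 3.76 for GDF15 and -1.06 for PLK2. Only the calls of PLK2 and GADD45A held under every alternative run. The adjusted p of CDKN1A rose from 0.039 to between 0.0605 and 0.138 on leaving out a control, BAP1 KO or second MLL4 KO library.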

How the results depend on the processing

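No p53 target that was called, in the values reported or in an alternative, changed direction between them. The number of the 35 called moved by over 1.5 times with the 4 libraries of the comparison alone, to 0 for MLL4 KO and 18 for BAP1 KO. In those fits the other groups no longer share the estimate of the spread, and the filter and scaling were redone. Which of these moved the counts was not tested. Leaving out 1 library at a time gave 2 to 19 called for MLL4 KO, 3 to 14 for BAP1 KO, 13 to 23 for control against WT and 2 to 16 for the difference of the knockout effects. With the replicate number as a block the counts were 10, 9, 20 and 7, which cost the calls of NINJ1 in MLL4 KO, BAX in control against WT, and CDKN1A and FAS in the difference, and with the numbers crossed they were 11, 9, 20 and 9. A gene that was not called may still have changed, and changes of about 1.5-fold were rarely recovered in simulation with 2 libraries a group. However, only 200 genes were changed in that simulation, where 19.1% of all genes were called in MLL4 KO against WT. The share recovered there need not hold for these data, in which NINJ1 was called at 1.44-fold in MLL4 KO.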
